A study of Mus musculus with 2 samples.

Results

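The Mir17-92 and Mir106b-25 clusters are a pair of groups of microRNA hairpins, each made from a single primary transcript. Mir17-92 comprises Mir17, Mir18, Mir19a, Mir20a, Mir19b-1 and Mir92-1, and Mir106b-25 comprises Mir106b, Mir93 and Mir25. These 9 loci were taken by gene symbol from the 1973 microRNA loci of the count tables, and all 9 had a row. The tables came from small RNA libraries under 30 nucleotides of mouse hindbrain, which gives rise to the pons, the medulla and the cerebellum. The embryos were of strain B6NCrl at embryonic day 14.5, with no treatment or engineered allele named in the labels, and formed 1 group of 2 replicate libraries. Tissue was collected on 24 July 2014 for replicate 1 and on 30 July 2014 for replicate 2. The labels call each sample a single hindbrain in 1 field and a pool of both sexes in another, and give the same donor to both. Whether the libraries came from separate animals was therefore not given. Every SD below measures only the spread between these samples, which may be technical. The p-values compare these libraries only. Those of the binomial test allow for counting error alone, and those with a common dispersion rest on the spread between the same libraries.

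Mature microRNAs guide Argonaute proteins to messenger RNAs, chiefly through the seed, bases 2 to 8 from the 5′ end. The Mir17-92 transcript is driven by Myc and E2F factors in dividing cells, and its products repress cell cycle inhibitors and pro-apoptotic genes such as Cdkn1a and Bcl2l11. In the developing nervous system the cluster is known for expanding neural stem and progenitor cells. The Mir106b-25 hairpins lie inside Mcm7, a subunit of the replicative helicase, and their products share seeds with those of Mir17-92. Another cluster, Mir106a-363 on the X chromosome, is the nearest paralog of Mir17-92.

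The members fell into 4 seed families. The guide of each locus, that is the arm its family is named for, is shown because the seed decides which loci can share targets and the bases after it decide whether reads of different loci can be told apart. Sequences are from RefSeq (GRCm38.p6), in which all 9 members and all 6 hairpins of the X-linked cluster had an entry. Each is written 5′ to 3′ with the seed in capitals.
miR-17-5p: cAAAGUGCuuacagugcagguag
miR-20a-5p: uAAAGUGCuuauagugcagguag
miR-106b-5p: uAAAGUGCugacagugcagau
miR-93-5p: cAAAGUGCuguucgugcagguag
miR-18a-5p: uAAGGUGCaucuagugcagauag
miR-19a-3p: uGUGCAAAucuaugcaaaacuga
miR-19b-3p: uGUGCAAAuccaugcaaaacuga
miR-92a-3p: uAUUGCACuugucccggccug
miR-25-3p: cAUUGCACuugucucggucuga

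Mir17, Mir20a, Mir106b and Mir93 shared the seed AAAGUGC, the miR-17 family. Mir18 alone had AAGGUGC, Mir19a and Mir19b-1 shared GUGCAAA, and Mir92-1 and Mir25 shared AUUGCAC. Over the bases both guides have, miR-17-5p differed from miR-20a-5p at 2 positions, from miR-106b-5p at 3 and from miR-93-5p at 4. The guides of Mir19a and Mir19b-1 differed at 1 position of 23, and those of Mir92-1 and Mir25 at 3 of 21. The guides were 21 to 23 bases long, and their GC content ran from 34.8% in miR-19a-3p to 57.1% in miR-92a-3p.

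For 2 members the whole guide also lies in a hairpin of the X-linked cluster. The guide of Mir19b-1 is identical to that of Mir19b-2, and the guide of Mir92-1 is identical to that of Mir92-2. The hairpins are shown because a read inside the run they share, in capitals, maps to both loci, and such multimapping reads were not counted at any locus.
Mir19b-1 hairpin: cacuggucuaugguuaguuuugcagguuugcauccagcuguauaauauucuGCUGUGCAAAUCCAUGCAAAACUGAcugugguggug
Mir19b-2 hairpin: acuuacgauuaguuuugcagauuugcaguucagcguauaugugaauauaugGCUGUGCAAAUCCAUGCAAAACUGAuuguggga
Mir92-1 hairpin: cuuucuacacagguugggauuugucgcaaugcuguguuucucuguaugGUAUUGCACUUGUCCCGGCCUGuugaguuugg
Mir92-2 hairpin: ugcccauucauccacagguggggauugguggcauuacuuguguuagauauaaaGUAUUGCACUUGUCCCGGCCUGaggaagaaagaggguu

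The shared run was 25 bases in the Mir19b pair and 22 bases in the Mir92 pair. In both pairs it ended at the last base of the annotated guide, so a read that runs 1 base further at its 3′ end differs between the copies. The counts of Mir19b-1 and Mir92-1 therefore hold only reads that reach past the shared run or come from the other arm, and their levels are uncertain. Of all sequenced reads 33.9% were multimapping in replicate 1, as were 34.3% in replicate 2, and the loci they belong to are not given. The other 7 members shared no run of 20 bases with another mouse hairpin of the RefSeq table. The longest run for these 7 was 17 bases, in Mir18 with Mir18b and in Mir20a with Mir3966.

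Mir17-92 lies on chromosome 14 (GRCm38), plus strand, with 6 hairpins between 115043671 and 115044506, a span of 836 bp. All 6 lie in exon 2 of the 2-exon noncoding RNA Mir17hg, which runs from 115042879 to 115046727. The gaps between neighbouring hairpins were 35 to 96 bp. Mir106b-25 lies on chromosome 5, minus strand, with Mir106b first, then Mir93 and Mir25, between 138165321 and 138165818, a span of 498 bp. All 3 lie in intron 13 of the 15-exon coding transcript of Mcm7. Mir93 and Mir25 also lie in exon 1 of a shorter Mcm7 transcript annotated as a retained intron.

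Replicate 1 had 5826676 counts on the gene strand of microRNA loci and replicate 2 had 6667238. Levels are given as CPM, the count of a locus per 1000000 of these counts, with the SD over the 2 libraries. A mature microRNA gives about 1 read whatever the hairpin's length, so no length scaling was applied. Intervals and floors cover counting error only, since reads were counted without molecular identifiers, and the ligation and amplification preferences of the small RNA protocol, which differ between sequences, were not measured. As a check of the tissue, the 5 Hox cluster loci that mark hindbrain and posterior position together had 179100 CPM in replicate 1 and 140200 in replicate 2. Nearly all of this came from Mir10a and Mir10b, while the 3 Mir196 loci, of more posterior Hox genes, ranged from 0 to 38.4 CPM in a library. The 6 neuronal loci had 12340 and 13700 CPM. Nearly all of this came from Mir137, with 9697 and 10645 CPM, Mir128-1 and Mir128-2. The Mir124a loci ranged from 0.858 to 7.95 CPM in a library. Of the 3 progenitor loci of miR-9, 2 had a row, with 528.6 and 507 CPM, nearly all from Mir9-3. Both miR-9 and the neuronal miR-124 come from several loci, and reads that map to more than 1 locus were not counted. Among other cell types, endothelial Mir126a had 31780 and 36690 CPM, 3 red cell loci 278 and 386.4 CPM, myeloid Mir223 194.3 and 208.5 CPM, and liver Mir122 13.7 and 15.7 CPM. Of 6 muscle loci 5 had a row, together 15.4 and 16.5 CPM. Nearly all of this came from Mir206, with 14.9 and 16.2 CPM, while Mir1a-1 and Mir133a-1 were at 0 in both libraries. Mir1a and Mir133a are each listed at more than 1 locus, and multimapping reads were not counted, so the muscle sum may be too low. The part of these cell types in the members' levels was not tested.

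The 9 members held 3.78% ± 0.350 of all microRNA counts (SD, n = 2). Mir17-92 contributed 2.46% ± 0.248 and Mir106b-25 1.32% ± 0.102 (SD, n = 2). The share of Mir17-92 in replicate 1 was 2.64%, with a 95% Clopper-Pearson interval of 2.62 to 2.65, against 2.29% (2.28 to 2.30) in replicate 2. That of Mir106b-25 was 1.39% (1.38 to 1.40) and 1.24% (1.23 to 1.25). All these shares leave out multimapping reads. All 9 members had at least 10 counts in each library, as did 401 loci in all. The median level of those 401 loci was 129.8 CPM, and 7 of the 9 members lay above it. No counts fell on the opposite strand of any member, in either library.

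Mir17, which names the cluster and carries the AAAGUGC seed, had the highest level of the 9. It had 15581 CPM in replicate 1 and 13108 in replicate 2, a mean of 14345 ± 1749 (SD, n = 2), and ranked 13 among the 1973 loci. Replicate 1 was the higher library, and the range of Mir17 did not overlap that of any other member. Mir20a, with the same seed, had 5565 and 4636 CPM, a mean of 5100 ± 657 (SD, n = 2) and rank 41. In both libraries Mir17 had about the same excess over Mir20a, 2.80-fold (95% interval 2.77 to 2.84) in replicate 1 and 2.83-fold (2.79 to 2.86) in replicate 2.

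Mir106b and Mir93 are the AAAGUGC members of the Mcm7 cluster. Mir106b had 6754 CPM in replicate 1 and 6465 in replicate 2, a mean of 6610 ± 204 (SD, n = 2) and rank 27. Mir93 had 6748 and 5629 CPM, a mean of 6189 ± 791 (SD, n = 2) and rank 32. The ranges of this pair overlapped, so their order was not separated by the spread between libraries. The pair was level in replicate 1, with 1.00 counts of Mir106b per count of Mir93 (95% interval 0.987 to 1.02), while replicate 2 had 1.15 (1.13 to 1.16).

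Mir18, the single member with the AAGGUGC seed, had 4382 CPM in replicate 1 and 4244 in replicate 2, a mean of 4313 ± 97.7 (SD, n = 2) and rank 44. Its CV was 2.26%, against 12.2% for Mir17 and 12.9% for Mir20a, which lie on the same transcript. Mir17 exceeded Mir18 by 3.56-fold (95% interval 3.51 to 3.60) in replicate 1 and 3.09-fold (3.05 to 3.13) in replicate 2.

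The AUUGCAC loci stood lower in both clusters. Mir92-1, the last hairpin of Mir17-92, had 806.8 CPM in replicate 1 and 834.1 in replicate 2, a mean of 820 ± 19.3 (SD, n = 2) and rank 103. Mir25, the last hairpin of the Mcm7 cluster, had 375.9 and 340.5 CPM, a mean of 358 ± 25.02 (SD, n = 2) and rank 143. The level of Mir92-1 leaves out reads inside the run shared with Mir92-2, and how many there were was not measured. Mir106b, from the same intron as Mir25, had 18.0 times the counts of Mir25 in replicate 1 and 19.0 times in replicate 2. What sets the lower counts of the AUUGCAC loci was not tested.

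The GUGCAAA loci, of the miR-19 family known as the main oncogenic part of the cluster, had the lowest counts of the 9. Mir19a had 39.5 CPM in replicate 1 and 43.2 in replicate 2, a mean of 41.3 ± 2.63 (SD, n = 2) and rank 256. Mir19b-1 had 7.21 and 6.90 CPM, a mean of 7.05 ± 0.218 (SD, n = 2) and rank 318, from 42 and 46 counts. Both lay far below their neighbours on the same transcript. Mir17 had 395 times the counts of Mir19a in replicate 1 (95% interval 347 to 451) and 303 times in replicate 2 (270 to 342). Its excess over Mir19b-1 was 2162-fold (1599 to 2999) and 1900-fold (1424 to 2595). Mir19b-1 shares its whole guide with Mir19b-2, while Mir19a shares no run longer than 13 bases with another hairpin. How far miR-19a reads, 1 base away from miR-19b-3p, were set aside as multimapping depends on the mismatches the aligner allowed and was not tested.

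**Figure D1:**
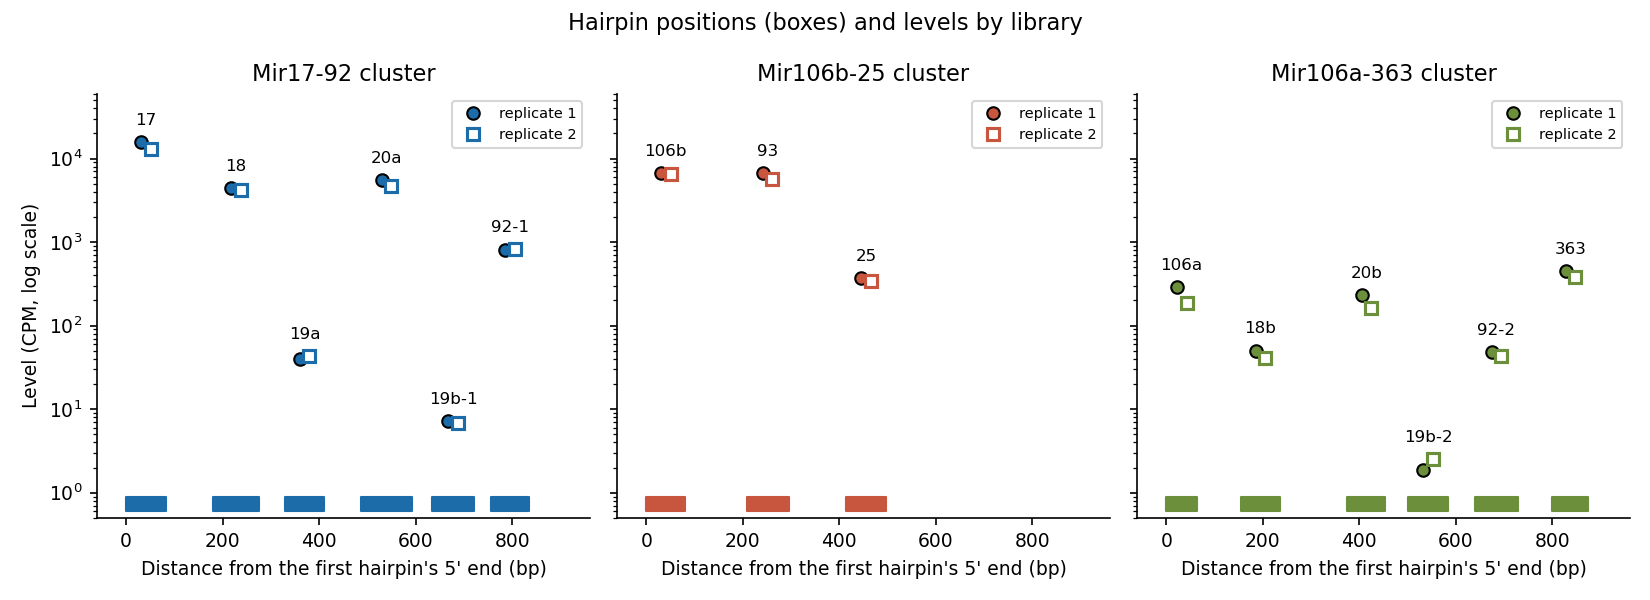
Level of each hairpin in CPM on a log axis against its distance in bp from the 5′ end of the first hairpin, in the direction of transcription, with filled circles for replicate 1, open squares for replicate 2 and boxes for the hairpins. In Mir17-92 the levels run from 14345 CPM for Mir17 to 7.05 CPM for Mir19b-1 within 836 bp, and the X-linked cluster also has its lowest point at Mir19b-2. The points of the Mir19b and Mir92 pairs leave out reads inside the run that each pair shares, so these low points are uncertain.

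From the highest to the lowest mean the order was Mir17, Mir106b, Mir93, Mir20a, Mir18, Mir92-1, Mir25, Mir19a and Mir19b-1, and each library alone gave this order. Apart from Mir106b and Mir93, neighbours in this order had ranges that did not overlap. The closest of these were Mir93 over Mir20a, 1.21-fold in each library, and Mir20a over Mir18, 1.27-fold in replicate 1 and 1.09-fold in replicate 2. With 2 libraries a range is a weak measure of spread, and no test was made of these levels. The places of Mir92-1 and Mir19b-1 are uncertain, since in both libraries their counts leave out reads inside the shared runs.

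Set among all loci, Mir17 stood between Mir99b with 20418 ± 259 CPM and Mir149 with 14266 ± 1557 CPM (SD, n = 2). Mir106b stood between Mir30d and Mir22, Mir93 between Mir382 and Mir322, and Mir20a between Mir381 and Mir298. Mir18 had Mir140 above and Mir130b below it, Mir92-1 had Mir337 and Mir27b, and Mir25 had Mir540 and Mir3099. Mir19a stood between the red cell locus Mir144 with 43.2 ± 22.9 CPM and Mir1224 with 41.1 ± 3.22 CPM (SD, n = 2). Mir19b-1 stood between Mir147 and Mir3062.

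Within Mir17-92 the composition was uneven and similar in both libraries. Mir17 made up 59.1% of the cluster's counts in replicate 1, with a 95% Clopper-Pearson interval of 58.8 to 59.3, against 57.3% (57.1 to 57.6) in replicate 2. Mir20a made up 21.1% (20.9 to 21.3) and 20.3% (20.1 to 20.5). Mir18 took a larger share of the cluster in replicate 2, 18.6% (18.4 to 18.8) against 16.6% (16.4 to 16.8). Mir92-1 did likewise, with 3.65% (3.55 to 3.74) against 3.06% (2.97 to 3.15). Mir19a and Mir19b-1 held 0.150% and 0.0273% in replicate 1 and 0.189% and 0.0302% in replicate 2. The counts of Mir92-1 and Mir19b-1 leave out reads inside the runs shared with Mir92-2 and Mir19b-2. All shares of the cluster, that of Mir17 included, can therefore differ from the true ones by an amount not measured.

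Within Mir106b-25, Mir106b and Mir93 held nearly all counts. Mir106b made up 48.7% of the cluster in replicate 1 (48.3 to 49.0) and 52.0% in replicate 2 (51.6 to 52.3). Mir93 made up 48.6% (48.3 to 49.0) and 45.3% (44.9 to 45.6). Mir25 held 2.71% (2.60 to 2.82) and 2.74% (2.63 to 2.85), values whose intervals overlap. These intervals leave out the variation between animals, which 2 libraries cannot give.

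Counts are per locus and can include reads of the other arm, which has another seed. Grouped by the seed of the guide, the 4 AAAGUGC members held 86.1% of the members' counts in replicate 1 and 84.5% in replicate 2. Mir18 held 10.9% and 12.02%, the pair with AUUGCAC 2.94% and 3.33%, and the pair with GUGCAAA 0.116% and 0.142%. These shares leave out multimapping reads, which include those inside the shared runs of Mir92-1 and Mir19b-1, and the size of this gap was not measured. Over all loci counted, 7 have an arm with the AAAGUGC seed, and together they had 35170 CPM in replicate 1 and 30190 in replicate 2. Mir17 and Mir20a supplied 59.4% ± 0.958 of these counts and Mir106b and Mir93 39.2% ± 1.18 (SD, n = 2). The X-linked pair Mir106a and Mir20b supplied 1.32% ± 0.222 (SD, n = 2). The seventh locus, Mir6383, was at 0 in both libraries, and a floor of 3 counts puts its upper limit at 0.515 CPM in the first library and 0.450 CPM in the second.

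For the AAGGUGC seed, Mir18 supplied 99.0% ± 0.129 of the counts and its X-linked partner Mir18b the rest (SD, n = 2). For GUGCAAA, Mir19a and Mir19b-1 supplied 95.6% ± 0.676 (SD, n = 2), from a family total of only 48.6 CPM in replicate 1 and 52.6 in replicate 2. The AUUGCAC family was different in its sources. Of its 4340 and 4135 CPM, Mir92-1 supplied 19.4% ± 1.12 and Mir25 8.45% ± 0.301 (SD, n = 2). Mir92-2 and Mir363 of the X-linked cluster supplied 10.8% ± 0.802 and the 3 loci outside the paralogous clusters, Mir92b, Mir32 and Mir367, 61.3% ± 0.0171 (SD, n = 2). Mir92b alone had 3.08 times the counts of Mir92-1 in replicate 1 (95% interval 2.98 to 3.18) and 2.78 times in replicate 2 (2.69 to 2.86). These family shares leave out multimapping reads, and for the families of Mir19b-1 and Mir92-1 they can differ from the true shares by an amount not measured here.

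**Figure D2:**
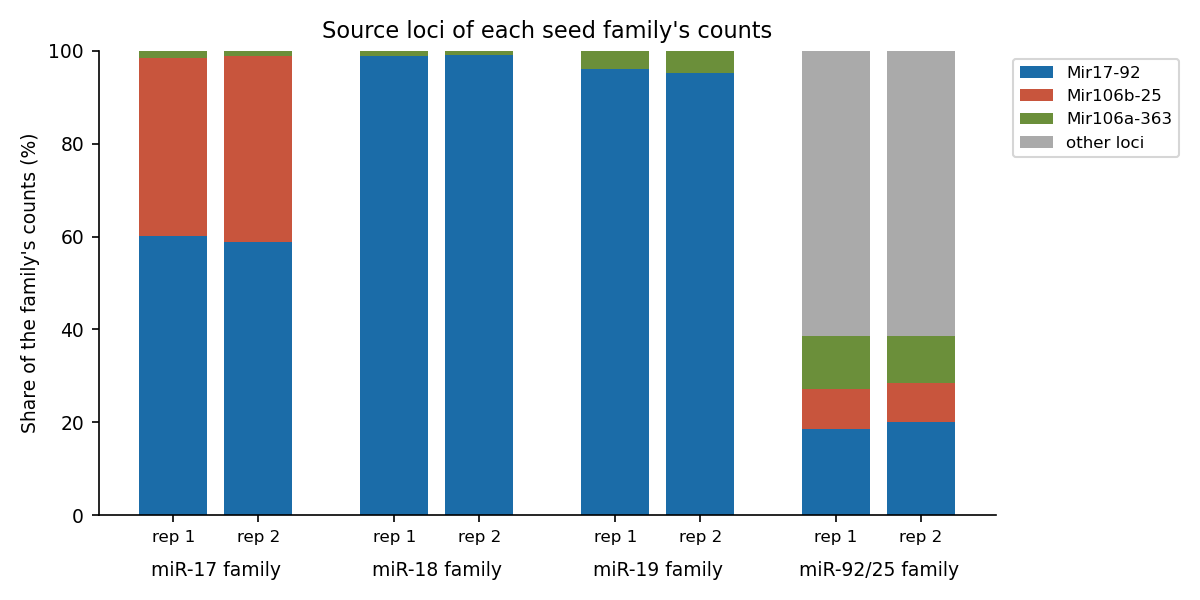
Share of each seed family's counts, in percent, by the cluster that the loci belong to, with 1 stacked bar for each library. Mir17-92 and Mir106b-25 fill nearly the whole bar of the miR-17 family, Mir17-92 those of the miR-18 and miR-19 families, and loci outside the clusters hold 61.3% of the miR-92/25 family. The bars leave out multimapping reads.

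Of the 6 loci of Mir106a-363, 5 have a paralog in Mir17-92, so these 5 pairs could be set side by side. Mir19a has no counterpart there, and Mir363 has none in Mir17-92 beyond sharing the AUUGCAC seed of Mir92-1. The X-linked cluster held 0.0943% ± 0.0175 of the microRNA counts (SD, n = 2), with 1067 CPM in replicate 1 and 819.4 in replicate 2. Mir17 had 54.0 times the counts of Mir106a in replicate 1 (95% interval 51.4 to 56.7) and 69.6 times in replicate 2 (65.9 to 73.7). The guides of Mir17 and Mir106a differ at 1 position of 23, and how many reads were assigned to the wrong locus was not measured. Mir18 exceeded Mir18b by 87.2-fold (77.7 to 98.1) and 104-fold (92.3 to 118), and Mir20a exceeded Mir20b by 24.0-fold (22.8 to 25.4) and 28.4-fold (26.7 to 30.2). Mir92-1 exceeded Mir92-2, which has the same guide, by 16.7-fold (14.8 to 18.9) and 19.3-fold (17.1 to 21.8). Mir19b-1 exceeded Mir19b-2 by 3.82-fold (1.93 to 8.22) and 2.71-fold (1.52 to 5.04), from 11 and 17 counts of Mir19b-2. The excess was smallest for the Mir19b pair and largest for the Mir18 pair in both libraries, and all 10 intervals lay above 1. These intervals cover counting error, and no test was made of the difference between pairs. For the Mir19b and Mir92 pairs the counts leave out reads inside the shared run, so the excess of these pairs and their place in the order are uncertain. Mir363 held 41.8% of the X-linked cluster's counts in replicate 1 and 46.5% in replicate 2, and Mir92-1 exceeded it by 1.81-fold (1.72 to 1.90) and 2.19-fold (2.09 to 2.30).

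The only comparison the design allows is replicate 2 against replicate 1, which compares these libraries and not conditions. The exact two-sided binomial test against TMM-scaled library sizes, with Benjamini-Hochberg adjustment over 498 loci, found 6 of the 9 members lower in replicate 2, 0 higher and 3 that did not pass. Over all loci tested it called 32.5%, with 15.1% lower and 17.5% higher, so the members' share of lower calls stood above that of the table. The test calls abundant loci more readily. Of the 145 loci with 2000 or more counts in both libraries, a group set after the values were seen that holds 7 of the members, 72.4% were called and 33.8% were lower. The median log2 ratio of the members was -0.11, against 0.01 for all loci tested. Marker loci also differed between the same libraries. The summed Hox loci went from 179100 CPM in replicate 1 to 140200 in replicate 2, and Mir126a from 31780 to 36690. The summed neuronal loci went from 12340 to 13700 CPM and the summed red cell loci from 278 to 386.4. Some loci went against the sum of their list. Red cell Mir486 fell from 17.33 to 12.9 CPM, while Mir451a and Mir144 rose. Among the Hox loci Mir196b rose from 35.01 to 38.4 CPM and Mir196a-2 also rose, while Mir10a, Mir10b and Mir196a-1 fell. Neuronal Mir124a-2 fell slightly in CPM, while the other neuronal loci rose. The part of the marker loci in the members' ratios was not tested. In bulk tissue, fewer cells of a type and less microRNA per cell cannot be told apart.

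Mir20a, Mir93 and Mir17 differed most. Mir20a had a log2 ratio of -0.31 (exact 95% interval -0.33 to -0.28), Mir93 -0.30 (-0.32 to -0.28) and Mir17 -0.29 (-0.31 to -0.28), so replicate 1 was 1.24, 1.23 and 1.22 times higher. Mir25 followed with -0.19 (-0.27 to -0.10), Mir106b with -0.11 (-0.13 to -0.09) and Mir18 with -0.09 (-0.11 to -0.06). The largest adjusted p of these 6 was 9.2e-05 (exact binomial test, Mir25). Mir92-1, Mir19a and Mir19b-1 did not pass, with 0.01 (-0.05 to 0.06), 0.09 (-0.17 to 0.34) and -0.11 (-0.74 to 0.53). The intervals of Mir92-1 and Mir19a leave out the ratio of Mir17 from the same transcript, while that of Mir19b-1, which rests on few counts, includes it.

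The binomial test allows for counting error alone. With edgeR's common dispersion, estimated from the same libraries and equal to a biological coefficient of variation of 10.8%, 0 of the 9 members were called (adjusted p = 1.0 for each, and 0 at an unadjusted p under 0.05), as against 1.41% of the 498 loci. The differences of the members were thus within the spread that this estimate gives for the libraries as a whole. Collection day and replicate cannot be told apart.

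**Figure D3:**
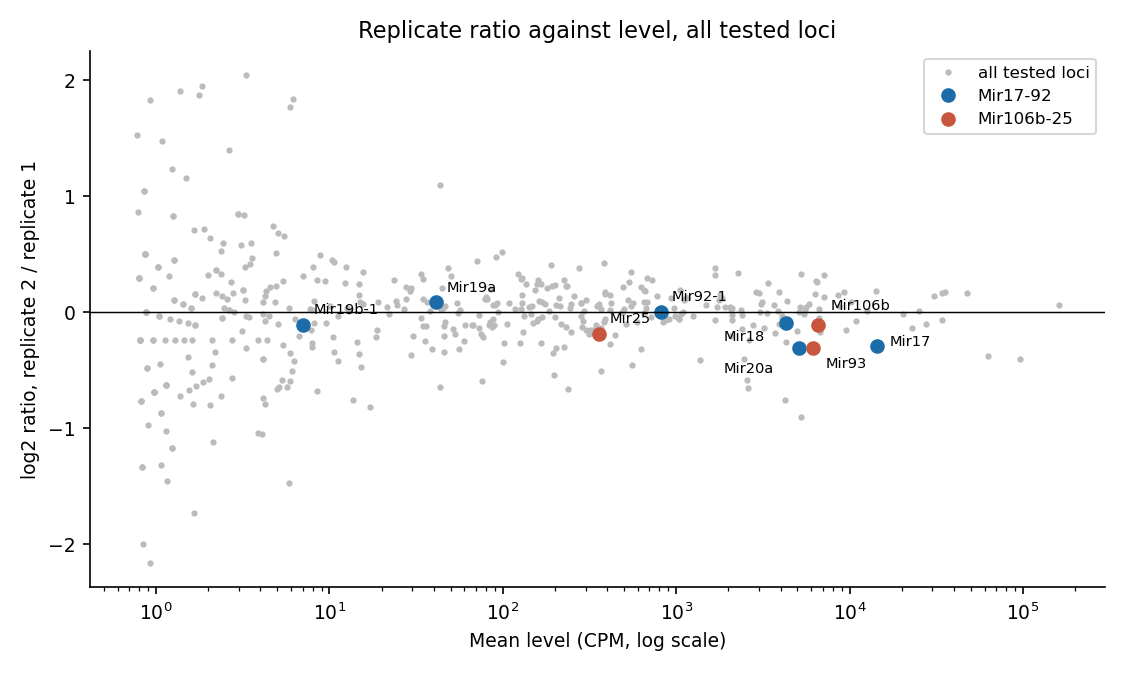
Log2 ratio of replicate 2 over replicate 1 after TMM scaling against mean level in CPM on a log axis, with 1 grey point for each of the 498 tested loci and coloured points for the members. Mir17, Mir20a and Mir93 sit near -0.3, while Mir92-1, Mir18 and Mir106b sit closer to 0.

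The X-linked cluster went the same way, with 4 of 6 loci lower in replicate 2, 0 higher and 2 that did not pass. Its median log2 ratio was -0.31, and over all loci tested 15.1% were lower. Mir106a had 288.7 CPM in replicate 1 and 188.2 in replicate 2, a log2 ratio of -0.66 (-0.77 to -0.55). Mir20b had 231.5 and 163.5 CPM, a log2 ratio of -0.54 (-0.66 to -0.43). The intervals of both lie below those of Mir17 and Mir20a, their paralogs. Mir363 had 446.4 and 381.1 CPM, a log2 ratio of -0.27 (-0.35 to -0.19). With the common dispersion 0 of these 6 were called (smallest adjusted p = 0.214, edgeR exact test, and 2 at an unadjusted p under 0.05).

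As a comparison outside the paralogous clusters, other microRNAs linked to the cell cycle were set beside the members. Of the list Mir15a, Mir15b, Mir16-1, Mir16-2, Mir195a and Mir497, whose products repress cyclins, 5 had a row. In the binomial test 2 were higher in replicate 2, 0 were lower and 3 did not pass, with a median log2 ratio of 0.02. Over all loci tested 17.5% were higher and 15.1% lower. Mir15a had 0.18 (0.15 to 0.20) and Mir195a 0.22 (0.15 to 0.29), and with library totals in place of TMM Mir16-1 was called higher as well. With the common dispersion 0 of the 5 were called (0 at an unadjusted p under 0.05). Of the seed partners of Mir92-1, Mir92b was lower, with -0.14 (-0.18 to -0.11), and Mir32 higher, with 0.24 (0.12 to 0.35), in the binomial test. With the common dispersion neither was called (unadjusted p = 0.521 for Mir92b and 0.298 for Mir32, edgeR exact test).

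**Figure D4:**
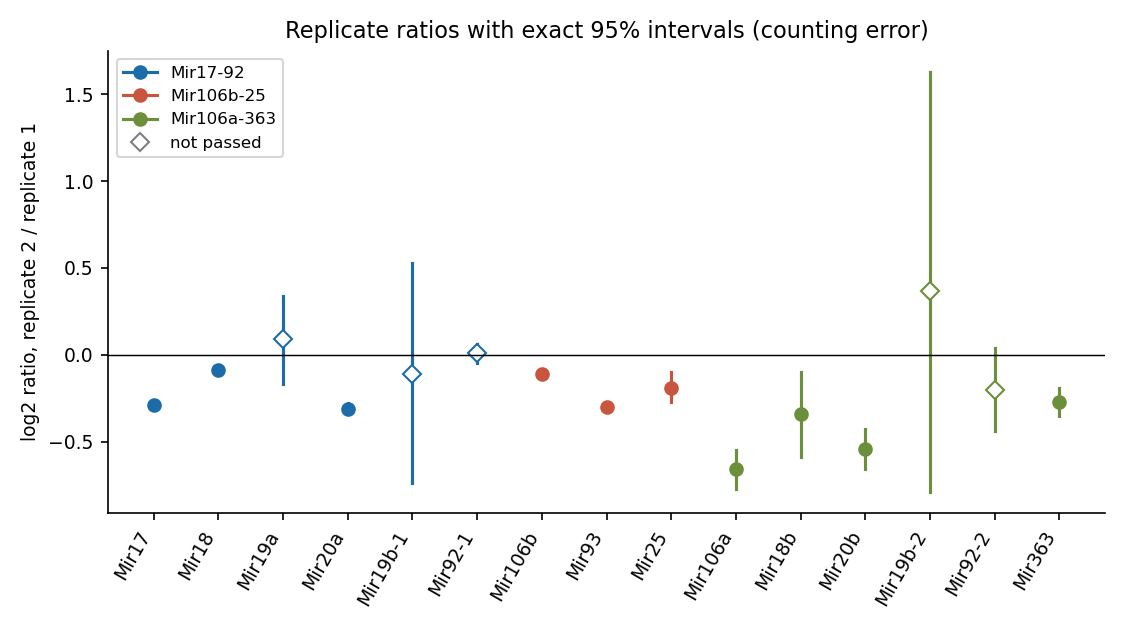
Log2 ratio of replicate 2 over replicate 1 for the 9 members and the 6 loci of the X-linked cluster, with exact 95% intervals for counting error, which are smaller than the symbol for abundant loci. Filled circles passed the binomial test and open diamonds did not, and all 10 loci that passed lie below 0.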

How the data were processed

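The authors deposited, for each library, unnormalized read counts for every microRNA locus, for both strands together and for each strand. The deposited file lists place the counts on build mm10 with annotation release M4. The aligner, its mismatch settings and the counter are not named there or in the labels. The strand column with 98.0% (replicate 1) and 97.8% (replicate 2) of counts on loci was used, without the rows of unassigned reads, in which unmapped reads were 13.8% and 15.9% of all reads. Symbols, coordinates and hosts came from GENCODE M21 (GRCm38), matched on the stable identifier for 1894 of 1973 loci. Counts were scaled by TMM (factors 0.985 and 1.01), and loci with 10 or more counts in sum were tested by an exact binomial test, threshold 0.05. The log2 ratio added 0.5 to each count. The binomial code was tested on simulated data. A fit with a term for the replicate leaves no residual degrees of freedom, so no quasi-likelihood test was made, and edgeR's common dispersion was estimated with both libraries as 1 group.

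All 9 members are named, with the X-linked cluster, loci sharing a seed, the cell cycle list, the marker lists and the locus next above and below each member in mean CPM. Members and lists were chosen with earlier results of these data known. Alternatives covered the denominator, strand, scaling, count filter, pseudocount, dispersion and leaving out each library. Scaling and the dispersion test ran in edgeR 4.0.16 and DESeq2 1.42.0 under R 4.3.3, and all else in scipy 1.17.1, pandas 2.3.3 and numpy 2.4.6 under Python 3.11.15, with figures by matplotlib 3.10.9.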

Additional observations from a re-analysis of the deposited data

How the results depend on the processing

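The same 6 members were lower in replicate 2 by the binomial test with library totals, DESeq2 size factors, upper quartile scaling, no low-count filter, a summed count of at least 100, counts of both strands and 1 added to each count, as were the same 4 loci of the X-linked cluster. With edgeR's common dispersion 0 members and 7 of 498 loci were called, against 6 and 162. Over all loci the split was 87 higher and 75 lower, and 114 and 59 with library totals. Mir92-1 turned to -0.01 with DESeq2 size factors, upper quartile scaling and the filter at 100, without passing. With all reads as the denominator the share of Mir17-92 was 1.18% and that of Mir106b-25 0.631%. Leaving out each library gave 2.29 to 2.64% for Mir17-92 and 1.24 to 1.39% for Mir106b-25. No paired analysis was possible because there is 1 group. The low counts of Mir19b-1 (42 and 46) limit its ratio to an interval of -0.74 to 0.53.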

Other observations

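The guides of Mir17, Mir20a, Mir93, Mir106a and Mir20b all end in GGUAG, and among the 498 tested loci these 5 were the ones with a RefSeq mature sequence of that ending. Their log2 ratios of replicate 2 over replicate 1 were -0.29, -0.31, -0.30, -0.66 and -0.54. Mir106b, with the same seed as these but a guide that ends in CAGAU, had -0.11. Loci of the 3 clusters with other endings ran from low to near 0. Mir18b (GUUAG) had -0.34, Mir363 (CUGUA) -0.27, Mir92-2 (GCCUG) -0.20, Mir25 (UCUGA) -0.19, Mir19b-1 (ACUGA) -0.11, Mir18 (GAUAG) -0.09 and Mir92-1 (GCCUG) 0.01. Mir19a and Mir19b-2, both ending in ACUGA, had 0.09 and 0.37, with only 11 and 17 counts of Mir19b-2. Counts of the Mir19b and Mir92 pairs leave out reads inside the shared run, which ends at the guide's last base. The ratios of these loci therefore need not stand for reads with the endings given. This grouping was made after the values were seen, and was not tested. All 5 also carry the AAAGUGC seed, and Mir106b is the 1 member with that seed and another ending.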
